A study of Homo sapiens with 9 samples.

Results

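The genes described here are 9 components and regulators of the complement system, read across 9 RNA libraries of SW1353, an established chondrosarcoma line of human origin that stands in for chondrocytes in many studies. They are C3, CFB, CFD, C1R, C1S, SERPING1, CD46, CD55 and CD59. All 9 were found among the 19389 genes of the expression table. They were chosen by gene symbol, with fold changes from earlier fits of these same libraries in view. All 3 comparisons below were therefore known when the genes were picked, and their values and adjusted p-values are a description of these genes, not evidence that complement stands out among pathways.

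The libraries form 3 groups of 3. The first was treated for 2 h with PBSL, which is made from Protaetia brevitarsis seulensis beetle larvae, and then for 20 h with 20 ng/mL of the inflammatory cytokine interleukin-1β (IL-1β). The second group received IL-1β alone at that dose and time, and the third was untreated. The labels list several PBSL concentrations and do not say which one was sequenced, and no group received PBSL without IL-1β. All libraries come from 1 cell line. Nothing states that the replicates were separate cultures, so the p-values measure the spread between these libraries, which may be technical.

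Complement is a cascade of plasma proteins that marks and lyses targets and that many tissue cells also make locally. The classical pathway starts with C1q and its proteases C1r and C1s, of which C1s cleaves C4 and C2. The alternative pathway uses factor B (CFB) and factor D (CFD), and both routes cleave C3, the central component. C1 inhibitor (SERPING1) blocks C1r and C1s, while CD46, CD55 and CD59 sit on the cell surface and protect the cell from its own complement. C3 and CFB are known as acute-phase genes that inflammatory cytokines raise in liver and in connective tissue cells.

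Sequences upstream of the start site are shown for the 3 of these genes with the largest fitted rise with IL-1β among the 6 that had an entry in the RefSeq promoter table (GRCh38.p14). Each is the 250 bases before the first start listed for the gene, 5′ to 3′ on the gene's strand. Capitals mark every match to 5 short motifs searched on both strands: κB as GGNNNTTCC, the interferon-stimulated response element as TTCNNTTTC, the STAT-type GAS element as TTCNNNGAA, C/EBP as TTGCNNAA and the TATA box as TATAAA. C3, C1S and SERPING1 were not in the table.
CFB, chr6:31945845-31946094, plus strand: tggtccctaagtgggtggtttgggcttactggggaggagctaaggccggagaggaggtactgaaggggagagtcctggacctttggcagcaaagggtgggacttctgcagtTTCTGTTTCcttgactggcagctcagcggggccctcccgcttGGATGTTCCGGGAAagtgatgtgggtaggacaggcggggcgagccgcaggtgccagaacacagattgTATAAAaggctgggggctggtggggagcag
C1R, chr12:7092446-7092695, minus strand: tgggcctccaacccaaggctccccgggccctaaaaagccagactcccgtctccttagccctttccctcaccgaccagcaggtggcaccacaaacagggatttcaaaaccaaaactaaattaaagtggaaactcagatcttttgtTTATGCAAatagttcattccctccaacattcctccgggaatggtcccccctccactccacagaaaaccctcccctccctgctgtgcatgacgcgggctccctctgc
CD55, chr1:207321428-207321677, plus strand: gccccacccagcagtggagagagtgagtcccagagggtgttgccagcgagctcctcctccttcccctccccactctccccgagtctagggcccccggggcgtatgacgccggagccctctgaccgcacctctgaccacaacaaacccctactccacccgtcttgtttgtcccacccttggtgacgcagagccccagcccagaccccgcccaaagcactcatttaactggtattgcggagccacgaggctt

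The CFB window held 4 of the 5 motifs. Counting back from the start, the interferon-type match began at -139. The κB match began at -97 and the GAS match at -92, and these overlap. The TATA match began at -30. The C1R window held 1 C/EBP match, at -106 on the opposite strand. A second start listed for C1R had a GAS match at -86 and a C/EBP match at -167 of its own window. The CD55 window held none. Of the genes not shown, CD59 held the κB letters at -74 and the GAS letters at -128 of its first window, and CFD and CD46 held no match. Among all 35116 windows of this length, 17.1% held the κB letters, 6.88% the interferon-type letters, 6.57% the GAS letters, 9.05% the C/EBP letters and 10.7% the TATA letters. A match is a stretch of letters and was not tested as a binding site.

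The genes lie in a few neighbourhoods, given in GRCh38 positions. C1S (chromosome 12, 7060718 to 7071032, plus strand) and C1R (7080219 to 7092445, minus strand) point towards each other with 9186 bases between them. CFB (chromosome 6, 31946095 to 31952084) begins 422 bases after C2, the gene of its classical-pathway counterpart. CD55 (chromosome 1, 207321678 to 207360966) and CD46 (207752038 to 207795516) lie in the same region of chromosome 1. C3 (6677704 to 6720650) and CFD (859664 to 863641) are both on chromosome 19, and SERPING1 (57597685 to 57614848) and CD59 (33703010 to 33736479) are both on chromosome 11. In GENCODE 29, C1R overlaps C1RL on the same strand over 3021 bases, and another protein-coding annotation spans C2 and CFB. C1S overlaps EMG1 on the same strand over 9170 bases, and CD59 overlaps another protein-coding annotation over 19458 bases. How reads shared by such overlaps were counted is not stated.

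The deposited values are normalized expression values that summed to between 523758 and 553196 per library, and between 15748 and 16137 genes were above 0. The number of reads behind a value is unknown. Among 2144 genes of low expression, the lowest value above 0 fell with transcript length with a log-log slope of -0.88, so the values are read as levels per length, and levels are compared between genes on that footing. Of the chondrocyte markers, SOX9 was between 8.0 and 12.8 in all libraries, and COL2A1, the type II collagen gene, was at most 0.027. VIM, a mesenchymal marker, was between 2997 and 3403. The other 3 mesenchymal markers varied with treatment. FN1, or fibronectin, averaged 931 in PBSL plus IL-1β libraries, 1337 in IL-1β libraries and 763 in untreated libraries. COL1A1 and COL1A2, the type I collagen genes, averaged 956 and 462 in PBSL plus IL-1β libraries, 1563 and 787 in IL-1β libraries and 1209 and 861 in untreated libraries. The sum of the 4 ran between 5440 and 6130 in PBSL plus IL-1β libraries, 6920 and 7020 in IL-1β libraries and 5850 and 6150 in untreated libraries, so it moved in the direction of C3, CFB, C1R and C1S between PBSL plus IL-1β and IL-1β. The sum of 8 chondrocyte markers was between 12.4 and 14.2 in PBSL plus IL-1β libraries, 13.7 and 15.1 in IL-1β libraries and 18.5 and 20.4 in untreated libraries. SOX9 made up most of it, averaging 8.92 in PBSL plus IL-1β libraries, 8.80 in IL-1β libraries and 12.02 in untreated libraries. ACAN, or aggrecan, went the other way, averaging 1.80 in PBSL plus IL-1β libraries, 1.43 in IL-1β libraries and 0.501 in untreated libraries. COL11A1 averaged 1.55 in PBSL plus IL-1β libraries, 2.54 in IL-1β libraries and 3.57 in untreated libraries. In the same order, HAPLN1 averaged 0.369, 0.518 and 2.275, MATN3 0.642, 0.939 and 0.893, and COMP 0.102, 0.175 and 0.268. For HAPLN1, MATN3 and COMP the PBSL plus IL-1β libraries overlapped the IL-1β libraries. COL9A1 was at most 0.013. The part of either marker list in the results was not tested. Fewer expressing cells and less RNA per cell cannot be told apart in bulk RNA.

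Much of the cascade was near 0 in this line. Of 47 further complement genes on a textbook list, 10 reached a value of 1 in 3 or more libraries and could be tested, 37 could not, and 10 of those were listed at 0 in all 9 libraries. The C1q chains C1QA, C1QB and C1QC were at most 0.046, and the highest value among 8 lectin-pathway genes was 0.17. C4A and C4B, near-identical genes whose reads cannot be cleanly separated, reached at most 0.531 and 0.342. Among 7 terminal genes C5 alone was tested, and it reached 1 only in the PBSL plus IL-1β libraries. The other 6 reached at most 1.18, in C8G. C2 was measurable, with means of 2.49 in PBSL plus IL-1β libraries, 3.59 in IL-1β libraries and 2.73 in untreated libraries.

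**Figure D1:**
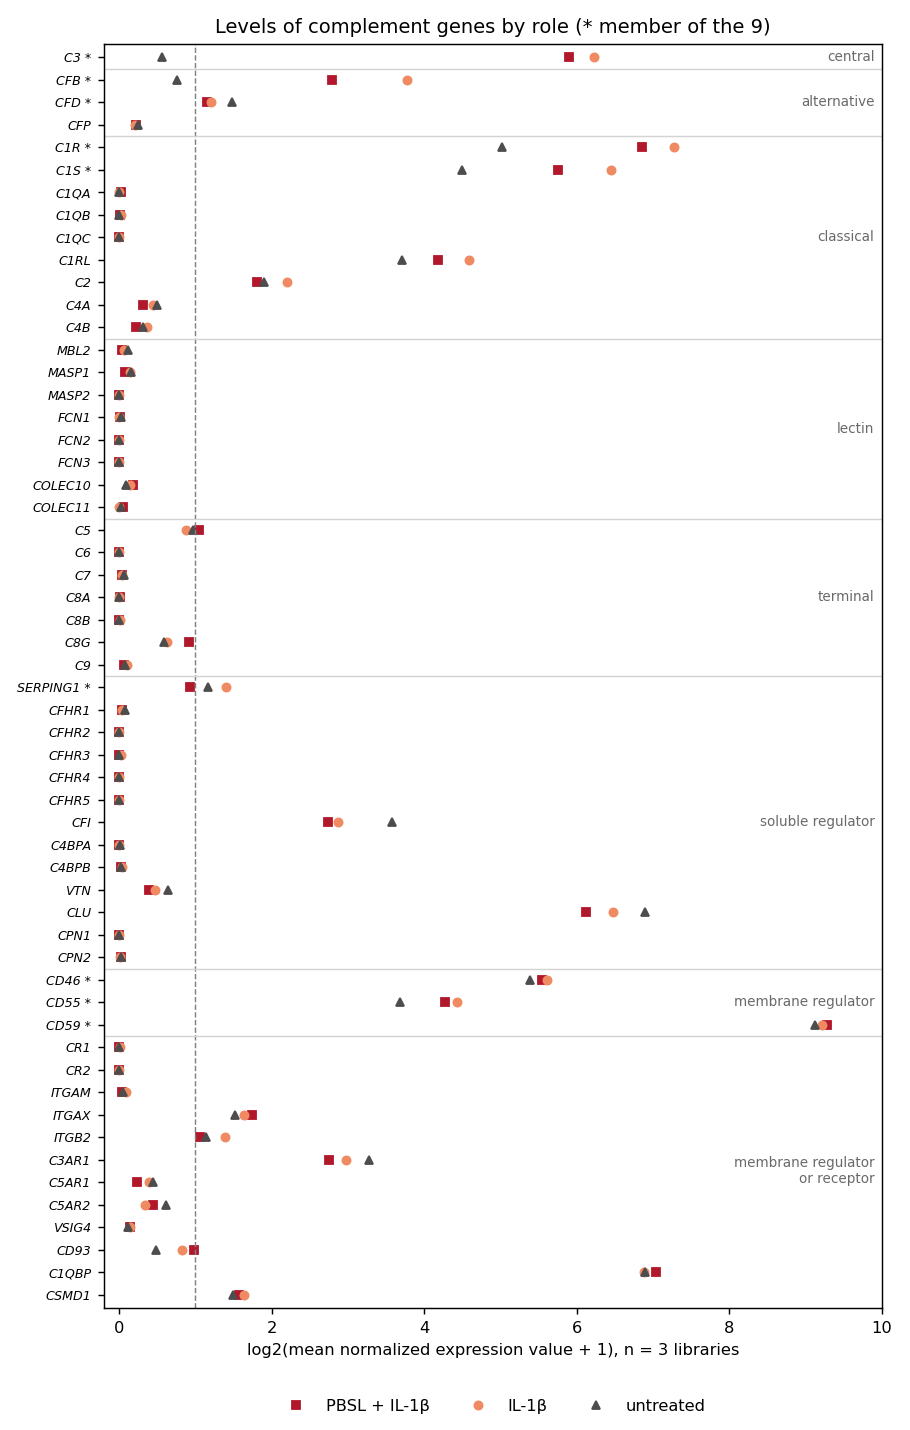
Mean level of each of the 56 complement genes per group of 3 libraries, as log2 of the mean normalized expression value plus 1, ordered by role, with an asterisk on the 9 genes of this report and a dashed line at a value of 1. CD59 is the most abundant gene in every group, C3 sits low in untreated libraries and high in both IL-1β groups, and the C1q chains and lectin genes lie near 0.

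The order of levels among the 9 genes differed between the groups. CD59, which blocks assembly of the membrane attack complex, was highest throughout, with 619 ± 17.8 in PBSL plus IL-1β libraries, 594 ± 13.6 in IL-1β libraries and 554 ± 7.66 in untreated libraries (mean ± SD, n = 3 each, as for all means below). After CD59, the order in PBSL plus IL-1β libraries was C1R, C3, C1S, CD46, CD55, CFB, CFD and SERPING1, and the libraries of C3 and C1S and those of C1S and CD46 overlapped. In IL-1β libraries it was C1R, C1S, C3, CD46, CD55, CFB, SERPING1 and CFD, and no neighbours overlapped. In untreated libraries it was CD46, C1R, C1S, CD55, CFD, SERPING1, CFB and C3, and the last 4 overlapped their neighbours. C3 was thus the lowest of the 9 in untreated libraries, and in IL-1β libraries it was above CD46 and CD55.

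**Figure D2:**
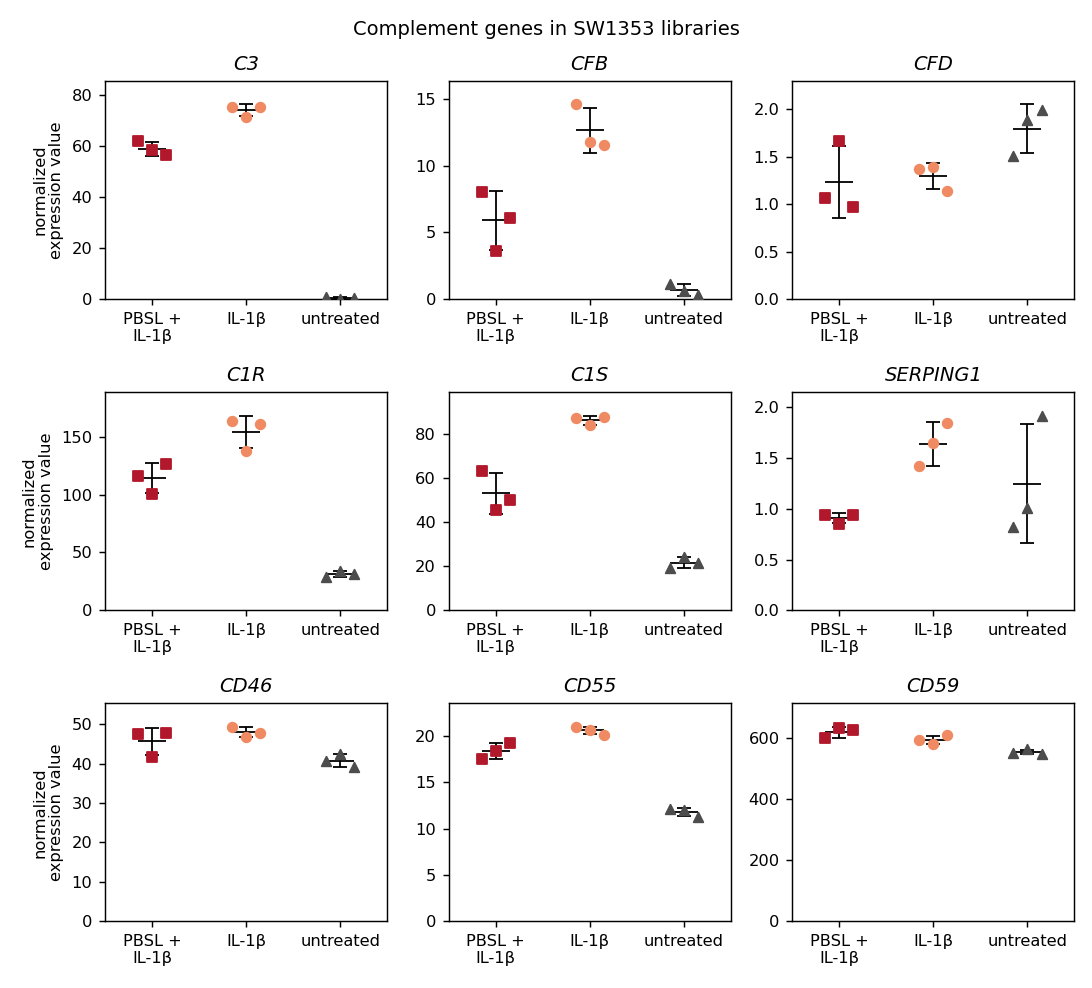
Normalized expression value of each of the 9 complement genes in every library, in columns for PBSL plus IL-1β, IL-1β and untreated cells, with bars for the mean ± SD of 3 libraries and an axis starting at 0 in each panel. C3, CFB, C1R and C1S are highest with IL-1β alone, lower with PBSL before it and lowest in untreated cells, while CD59 differs little.

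The first comparison, IL-1β alone against untreated cells, asked what the cytokine changed. By limma fitted to all 9 libraries, with Benjamini-Hochberg adjustment over 11924 genes, 6 of the 9 complement genes passed an adjusted p of 0.05 with higher values and 0 with lower values. Of all tested genes, 16.2% passed it higher and 16% lower. At an unadjusted p under 0.05, 7 were higher and 1 lower, against 20.8% and 21% of all tested genes. All 9 passed the filter of a value of 1 in 3 libraries, but C3 reached 1 only in libraries given IL-1β, and CFB did so in those and 1 untreated library. Those 2 entered the test through the groups where they are high, so nothing is read from their place in these counts. The median log2 fold change was 0.76 over the 9 genes and -0.0049 over all tested genes. The groups did not overlap for 8 of the 9, against 52.8% of all tested genes. A called rise of at least 2-fold was seen for 4 of the 9, namely C3, CFB, C1R and C1S, against 2.23% of all tested genes.

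C3, whose protein is cut by the convertases of all pathways, had 75.0, 71.1 and 75.3 in IL-1β libraries, against 0.926, 0.24 and 0.266 in untreated libraries. The groups lay far apart, and the first untreated library was the highest of its group. The ratio of means was 155, or 292 without untreated library 1, and the log2 fold change of value plus 1 was 5.69 (SE 0.133, adjusted p = 2.8e-11). The size depends on the constant added before the logarithm, with a log2 fold change of 7.20 when 0.1 was added.

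CFB, the protease subunit of the alternative-pathway convertase, had 14.6, 11.8 and 11.6 in IL-1β libraries, against 1.15, 0.589 and 0.329 in untreated libraries. No library overlapped, and again the first untreated library was the highest of its group. Its log2 fold change was 3.04 (SE 0.22, adjusted p = 7.81e-07), or 4.14 with 0.1 added. CFD, the protease that activates factor B, was not called. It had 1.37, 1.39 and 1.14 in IL-1β libraries, against 1.5, 1.89 and 1.99 in untreated libraries, and the log2 fold change was -0.28 (SE 0.12, adjusted p = 0.0996). The CFD groups did not overlap although the gene was not called. It was called when only the 2 groups were fitted (adjusted p = 0.0368) and without PBSL plus IL-1β library 2 (adjusted p = 0.0399), and its adjusted p ran between 0.0368 and 0.265 over all alternatives.

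The classical-pathway proteases rose together. C1R had 164, 138 and 161 in IL-1β libraries, against 28.7, 33.9 and 31.2 in untreated libraries, a log2 fold change of 2.26 with SE 0.0922 (adjusted p = 4.66e-09). C1S had 87.2, 83.8 and 87.7 in IL-1β libraries, against 19.3, 24.2 and 21.4 in untreated libraries, a log2 fold change of 1.95 with SE 0.107 (adjusted p = 7.28e-08). Every IL-1β library exceeded every untreated library for both. The ratio of the C1R level to the C1S level was 1.78 ± 0.127 in IL-1β libraries and 1.45 ± 0.0416 in untreated libraries. SERPING1, the inhibitor of both proteases, was not called, with 1.42, 1.65 and 1.85 in IL-1β libraries, against 0.819, 1.01 and 1.92 in untreated libraries. Its groups overlapped, with untreated library 3 the highest of all, and without that library the log2 fold change was 0.46 in place of 0.26 and was called (adjusted p = 0.00724, and the adjusted p lay between 0.00724 and 0.593 over all alternatives).

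Of the 3 membrane regulators, CD55 and CD46 rose and CD59 did not pass the test. CD55, which speeds the decay of convertases, had 21.0, 20.7 and 20.2 in IL-1β libraries, against 12.1, 12.03 and 11.3 in untreated libraries, a log2 fold change of 0.76 with SE 0.0569 (adjusted p = 1.1e-06). CD46, a cofactor for the cleavage of C3b and C4b, rose to 47.9 ± 1.31 in IL-1β libraries, against 40.8 ± 1.6 in untreated libraries, a log2 fold change of 0.23 with SE 0.0613 (adjusted p = 0.0133). The groups did not overlap for either gene. The CD46 call was lost without untreated library 3 (adjusted p = 0.0564) and without IL-1β library 1 (adjusted p = 0.0604), and the adjusted p lay between 0.00194 and 0.0604 over all alternatives. For CD59 the log2 fold change was 0.10 (95% interval 0.001 to 0.2, adjusted p = 0.115), and it was called only when the 2 groups were fitted alone (adjusted p = 0.0418, and the adjusted p lay between 0.0418 and 0.323 over all alternatives).

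**Figure D3:**
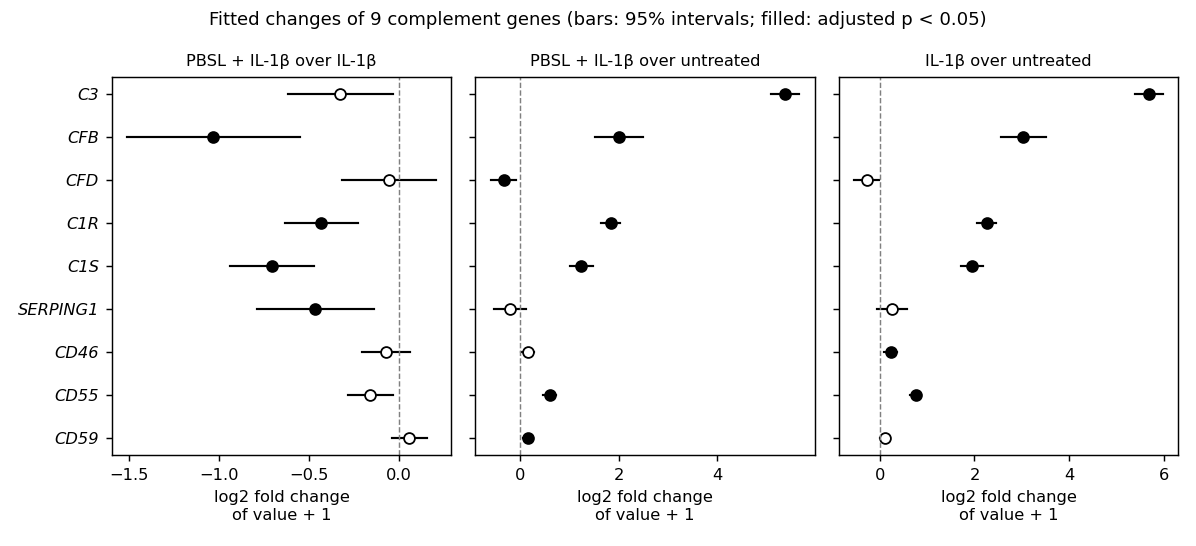
Fitted log2 fold changes of value plus 1 with 95% intervals for the 9 complement genes in the 3 comparisons; the horizontal scale differs between panels, and filled points have an adjusted p under 0.05. With PBSL before IL-1β, CFB fell furthest relative to IL-1β alone, and C3, CFB, C1R and C1S stay well above untreated cells in both comparisons against them.

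The second comparison, PBSL before IL-1β against IL-1β alone, asked what PBSL changed in stimulated cells. By limma, 4 of the 9 genes fell and none rose, where 11% of all tested genes fell and 11.5% rose. At an unadjusted p under 0.05, 6 were lower and 0 higher, against 17.7% and 18.8% of all tested genes. The median log2 fold change was -0.32 over the 9 genes and 0.0079 over all tested genes. The groups did not overlap for 6 of the 9, against 41.8% of all tested genes. A called fall of at least 2-fold was seen for CFB alone, against 0.151% of all tested genes. SERPING1 would not have passed the filter without its IL-1β libraries, the group where it is highest. Nothing is therefore read from its place in these counts.

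CFB had 7.99, 3.61 and 6.08 in PBSL plus IL-1β libraries, against 14.6, 11.8 and 11.6 in IL-1β libraries. The PBSL libraries were spread widely, with the second the lowest, and none reached an IL-1β library. The CFB mean was 46.6% of that with IL-1β alone, and the log2 fold change was -1.03 (SE 0.22, adjusted p = 0.00858). CFD had 1.06, 1.66 and 0.966 in PBSL plus IL-1β libraries, which overlapped the IL-1β libraries, with a log2 fold change of -0.055 (95% interval -0.317 to 0.207, adjusted p = 0.779).

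C1S and C1R both fell. C1S had 63.3, 45.5 and 50.1 in PBSL plus IL-1β libraries, against 87.2, 83.8 and 87.7 in IL-1β libraries, a log2 fold change of -0.71 with SE 0.107 (adjusted p = 0.00312). C1R had 116, 101 and 126 in PBSL plus IL-1β libraries, against 164, 138 and 161 in IL-1β libraries, a log2 fold change of -0.43 with SE 0.0922 (adjusted p = 0.0088). Neither gene's groups overlapped. The C1R to C1S ratio was 1.83, 2.21 and 2.52 in PBSL plus IL-1β libraries, against 1.88, 1.64 and 1.83 in IL-1β libraries. In the first PBSL library that ratio lay within the range of IL-1β alone, and the difference between the 2 genes' changes was not tested.

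SERPING1 fell to 0.91 ± 0.0531 in PBSL plus IL-1β libraries, against 1.64 ± 0.214 in IL-1β libraries, a log2 fold change of -0.46 with SE 0.148 (adjusted p = 0.0431). The 3 PBSL libraries, at 0.94, 0.849 and 0.942, lay below the 3 IL-1β libraries. No PBSL library reached the filter's value of 1, and the call was lost without any 1 of the 6 libraries compared. The adjusted p was then 0.0517, 0.118 and 0.09 without PBSL libraries 1, 2 and 3, and 0.065, 0.107 and 0.134 without IL-1β libraries 1, 2 and 3. It was also lost without untreated library 2 (adjusted p = 0.0539) and with no filter (adjusted p = 0.0889), and the adjusted p lay between 0.00844 and 0.134 over all alternatives.

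C3 was not called. It had 61.8, 58.2 and 56.3 in PBSL plus IL-1β libraries, against 75.0, 71.1 and 75.3 in IL-1β libraries, a mean of 79.6% of that with IL-1β alone. The groups did not overlap, and the log2 fold change was -0.32 (SE 0.133, adjusted p = 0.101). In the shared fit the spread of C3 includes its untreated libraries, which ran between 0.24 and 0.926. It was called without untreated library 1 (adjusted p = 0.00603) and when only the 2 groups were fitted (adjusted p = 0.0113), and the adjusted p lay between 0.00603 and 0.476 over all alternatives.

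The membrane regulators were not called in this comparison. CD55 had 17.5, 18.4 and 19.3 in PBSL plus IL-1β libraries, all below the 21.0, 20.7 and 20.2 in IL-1β libraries, and the log2 fold change was -0.16 (SE 0.0569, adjusted p = 0.0666). It was called after median-ratio rescaling (adjusted p = 0.0386) and without PBSL library 3 (adjusted p = 0.0467), and the adjusted p lay between 0.0386 and 0.19 over all alternatives. For CD46 the log2 fold change was -0.071 (95% interval -0.205 to 0.063, adjusted p = 0.43), and for CD59 it was 0.06 (95% interval -0.039 to 0.159, adjusted p = 0.366). The groups overlapped for both.

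The PBSL libraries did not move evenly. Set against the average IL-1β library on the log2 scale, CFB stood at -0.59, -1.56 and -0.94 in PBSL libraries 1, 2 and 3. C1S stood at -0.44, -0.91 and -0.77, and C3 at -0.25, -0.34 and -0.38. Library 1 was thus nearest to IL-1β alone for these 3 genes. It was not for C1R, at -0.40, -0.61 and -0.28, where library 3 was nearest, or for CD55, at -0.22, -0.16 and -0.09. With any 1 of the 9 libraries left out, between 3 and 5 of the 9 genes were called.

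**Figure D4:**
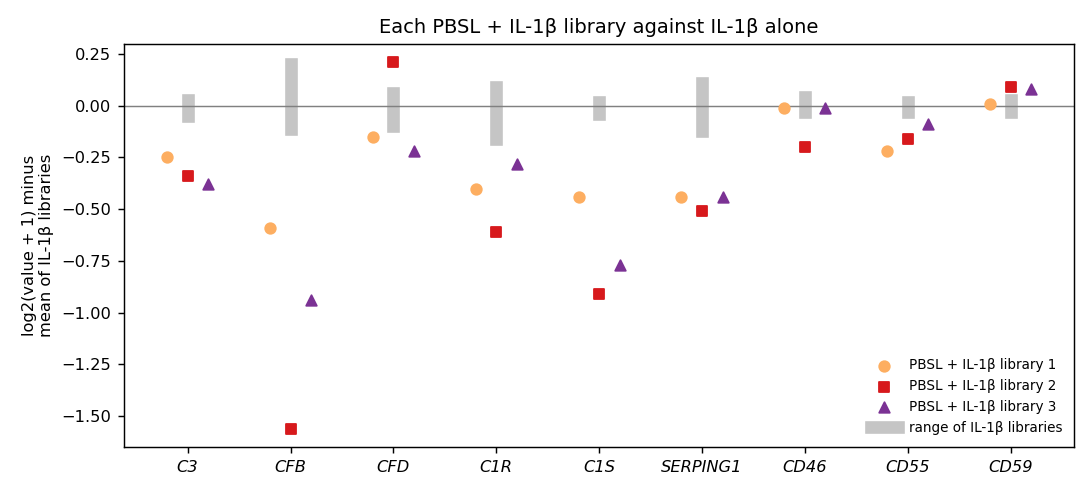
Difference of each PBSL plus IL-1β library from the mean of the 3 IL-1β libraries, in log2 of value plus 1, for the 9 complement genes; grey bars span the IL-1β libraries. CFB in library 2 stands lowest at -1.56, and all 3 PBSL libraries lie below the grey bar for C3, CFB, C1R, C1S, SERPING1 and CD55.

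Against untreated cells, PBSL plus IL-1β libraries still had higher levels of most of these genes. This comparison shares its libraries with the other two and is given as values beside them. By limma 6 of the 9 were higher and 1 lower, where 22.3% of all tested genes were higher and 19.3% lower. A called rise of at least 2-fold was seen for 4, against 1.69% of all tested genes, and 6 did not overlap, against 48.2%. The median log2 fold change was 0.60 over the 9 genes and 0.0311 over all tested genes. C3 and CFB entered the test through the groups where they are high, so nothing is read from their place in these counts. C3 stood at a log2 fold change of 5.37 with SE 0.133 (adjusted p = 5.19e-11), CFB at 2.01 (SE 0.22, adjusted p = 2.43e-05), C1R at 1.83 (SE 0.0922, adjusted p = 3.65e-08) and C1S at 1.25 (SE 0.107, adjusted p = 3.27e-06).

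CD55 and CD59 were the other 2 higher genes. CD55 had a log2 fold change of 0.60 with SE 0.0569 (adjusted p = 7.58e-06), and CD59 one of 0.16 (SE 0.0453, adjusted p = 0.0143). The CD59 call was lost when only the 2 groups were fitted (adjusted p = 0.0587) and without untreated library 3 (adjusted p = 0.05, just above the threshold), and the adjusted p lay between 0.00639 and 0.0587 over all alternatives. CFD was the lower gene, at -0.33 (SE 0.12, adjusted p = 0.0426), with overlapping groups. Its call was lost under 9 of 15 alternatives, including without any 1 of the libraries untreated 2 or 3, IL-1β 1, 2 or 3 and PBSL 1 or 3, and the adjusted p lay between 0.00569 and 0.149 over all alternatives. CD46 was not called (log2 fold change 0.16, adjusted p = 0.0579) but was without PBSL library 2 (adjusted p = 0.00851, and the adjusted p lay between 0.00851 and 0.179 over all alternatives). SERPING1 was not called (log2 fold change -0.21, adjusted p = 0.291).

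Shares of the summed level restate these changes. The 4 genes summed below are those called at least 2-fold higher with IL-1β, and CFD, another activating protease, is left out. C3, CFB, C1R and C1S together made up 25.3% ± 2.12 of the summed level of the 9 genes in PBSL plus IL-1β libraries, 32.9% ± 1.05 in IL-1β libraries and 8.14% ± 0.521 in untreated libraries. CD59 alone made up 67.5% ± 2.28 in PBSL plus IL-1β libraries, 59.9% ± 0.954 in IL-1β libraries and 83.5% ± 0.557 in untreated libraries. None of the groups overlapped in either share, which adds no result to those of the single genes. The mean level of CD59 itself was 594 in IL-1β libraries and 554 in untreated libraries. These are shares of transcript levels and were not tested.

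Among the 10 further complement genes tested, 1 was higher and 3 lower with IL-1β than in untreated cells, against 16.2% and 16% of all tested genes. C1RL, a C1r-like protease gene beside C1R, rose to 22.95 ± 0.825 in IL-1β libraries, against 12.1 ± 1.72 in untreated libraries. The genes that fell were CFI, the protease that inactivates C3b, at 6.30 ± 0.0786 with IL-1β against 10.9 ± 1.36 untreated, CLU, or clusterin, a fluid-phase regulator of the terminal complex, at 88.1 ± 2.88 against 118 ± 9.4, and C3AR1, the C3a receptor, at 6.88 ± 0.307 against 8.67 ± 1.05. The C3AR1 call was lost without any 1 of untreated library 3 and the IL-1β libraries and with no filter, with adjusted p up to 0.102. C2, C5, ITGAX, ITGB2, C1QBP and CSMD1 were not called, and the median log2 fold change of the 10 was 0.05.

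With PBSL before IL-1β, 3 of these 10 were lower and 1 higher than with IL-1β alone, against 11% and 11.5% of all tested genes. C1RL fell by 0.41 on the log2 scale (SE 0.106, adjusted p = 0.0184), C2 by 0.39 (SE 0.122, adjusted p = 0.0407) and CLU by 0.37 (SE 0.0853, adjusted p = 0.0119). The C2 groups overlapped, with PBSL library 1 at 2.797 and IL-1β library 2 at 2.779, and those of C1RL and CLU did not. C1QBP, which encodes a largely mitochondrial protein that binds C1q, rose by 0.15 (SE 0.0461, adjusted p = 0.0395). This count rests on single libraries. Without PBSL library 2, limma called 0 of the 9 then tested, against 12.1% of all genes tested then, in either direction. In that fit 4 had an unadjusted p under 0.05, against 30.7% of all genes. The count was 1 gene without IL-1β library 2 or 3, and 2 without IL-1β library 1, PBSL library 3 or untreated library 2. The CLU call was lost under 2 of 16, without IL-1β library 2 or PBSL library 2 (adjusted p = 0.0505 and 0.0508), the C1RL call under 5 of 16 (adjusted p up to 0.0677), the C2 call under 7 of 15 (up to 0.145) and the C1QBP call under 9 of 16 (up to 0.136). Against untreated cells, PBSL plus IL-1β libraries had 2 of the 10 higher, C1RL and C1QBP, and 3 lower, CFI, CLU and C3AR1, against 22.3% and 19.3% of all tested genes. The C1QBP call was lost under 10 of 16 alternatives with no fold minimum (adjusted p up to 0.131), and the other 4 calls held under all 16.

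The genes whose profiles over the 9 libraries were most like those of the complement genes were found by the root-mean-square difference of centred log2 values. For C3 they were CXCL3, a neutrophil-attracting chemokine (0.162), C15orf48 (0.235) and SOD2, a mitochondrial superoxide dismutase (0.267). For CFB they were PDZK1IP1 (0.221), IFI44, an interferon-induced gene (0.228), and MT1F, a metallothionein (0.241). C1R was nearest to LUM, the small proteoglycan lumican (0.134), TNFAIP6, a hyaluronan-binding protein (0.15), and AMPD3, an AMP deaminase (0.168). C1S was nearest to PLOD2, a collagen lysyl hydroxylase (0.117), DPP4, a cell-surface peptidase (0.125), and SLC15A3, a peptide transporter (0.126). SERPING1, whose own profile varied little, was nearest to NKD1 (0.0926), PCDHB2 (0.116) and AC010522.1 (0.121). The added 1 shrinks the changes of low genes, so genes alike on this scale need not change by the same fold. For example, DPP4 averaged 3.07 in IL-1β libraries and 0.153 in untreated libraries, where C1S averaged 86.2 and 21.6.

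Markers of cells that make much complement elsewhere were low. The summed level of 4 hepatocyte markers was between 0.253 and 0.446 in PBSL plus IL-1β libraries, 0.304 and 0.428 in IL-1β libraries and 0.492 and 0.759 in untreated libraries, and ALB was at most 0.072. The summed level of 7 macrophage markers was between 4.43 and 5.13 in PBSL plus IL-1β libraries, 5.12 and 5.78 in IL-1β libraries and 4.52 and 5.07 in untreated libraries. Of these 7, CSF1R alone passed the filter, and PTPRC, the pan-leukocyte marker, was at most 0.393. The macrophage sum ran highest with IL-1β, with ranges that meet those of PBSL plus IL-1β libraries, and its part in the results was not tested.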

How the data were processed

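RNA of 9 SW1353 libraries, 3 per group, was sequenced from a directional mRNA kit, per the labels' protocols. The submitters' processing notes name Trim Galore, STAR, HTSeq and hg38, without versions. The authors deposited 1 table of normalized expression signal per gene. Whether it is FPKM or TPM is not stated, and read depth is unknown. The values are not counts, so no count model was run.

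Values were analysed as log2(value + 1) with limma 3.58.1 in R 4.3.3: a mean per group over all 9 libraries (6 residual degrees of freedom), with a variance trend, genes kept where 3 or more libraries reached a value of 1, 3 contrasts, and Benjamini-Hochberg adjustment over all 11924 genes tested. Calls are at an adjusted p under 0.05, 2-sided. The scripts were tested on simulated data. An exact permutation test of 3 libraries against 3 cannot go below p = 0.1 and was not used. Fold changes on this scale understate changes of low genes.

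The 9 genes and all lists were chosen with earlier results of these data known. The text names all 9, every tested gene of the textbook complement list except 1 that is not reported here and was left out of the counts, and the 3 genes nearest in profile to C3, CFB, C1R, C1S and SERPING1. The other names are the highest or defining members of lists, chosen after their values were seen. Replicate numbers were not treated as pairs, because the labels do not say that equal numbers share a culture or day. Same-numbered libraries deviated from their group means with correlations between -0.225 and 0.068, which is below 0.1. With groups of 3, such correlations cannot settle whether libraries are paired. Alternatives are in the closing section. Positions and promoter windows come from RefSeq GRCh38.p14, and overlaps from GENCODE 29.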

Additional observations from a re-analysis of the deposited data

How the results depend on the processing

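For the 9 complement genes in 3 comparisons, 394 of 425 alternative values kept their direction and side of the threshold, 21 lost a call, 9 gained one and 1 reversed. With no fold minimum, C3, CFB, C1R, C1S and CD55 kept their calls against untreated cells under every alternative run, with and without PBSL. Under the same alternatives, CFB (adjusted p 0.00113 to 0.0367), C1R (0.00657 to 0.0399) and C1S (5.42e-05 to 0.017) kept theirs between PBSL plus IL-1β and IL-1β. When a 2-fold minimum was set, CD55 lost both its calls, and C1R and C1S lost theirs between PBSL plus IL-1β and IL-1β. Where a call changed, the cause was not tested, beyond the fewer libraries or the different set of genes that some alternatives use. Leaving out 1 library at a time gave 5 to 7 called genes of the 9 for IL-1β against untreated, 3 to 5 for PBSL plus IL-1β against IL-1β and 6 to 8 for PBSL plus IL-1β against untreated. With a 2-fold minimum the last 2 counts were 1 and 4. With the replicate block the counts were 6, 4 and 7, the same as without it. For the 10 other complement genes, the counts were 4, 3 and 4 with the replicate block, and leaving out 1 library gave 3 to 4, 0 to 5 and 4 to 5. With no filter, all 37 further complement genes above 0 in any library were tested, those with values near 0 included. Of these 37, 2 were called for PBSL plus IL-1β against IL-1β. For PBSL plus IL-1β against untreated, 10 of the 37 were called, 4 higher and 6 lower. Back with the filter, fitting only the groups compared gave 2 of the 10 for PBSL plus IL-1β against IL-1β. The 2-fold minimum gave 0 of the 10 in all 3 comparisons. Different-numbered libraries correlated between -0.111 and 0.196, and the labels do not say whether equal replicate numbers share a culture or day.

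Values that reversed were all of genes not called in that comparison. For C1QBP in IL-1β against untreated, leaving out 1 library gave -0.037 to 0.01, highest without untreated library 1. ITGB2 for PBSL plus IL-1β against untreated was 0.007 without untreated library 2, in a range from -0.18, and CFD for PBSL plus IL-1β against IL-1β was 0.03 without PBSL library 3, in a range from -0.189. Count models were not run because the values are not counts. SERPING1 and CFD could not be tested with the filter of 5, nor SERPING1 in the fit of PBSL plus IL-1β and untreated libraries alone. The unknown read depth limits what can be said of genes with values near or under 1, SERPING1 and CFD among them.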

Other observations

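PTPRC, the pan-leukocyte gene CD45, was low in every library and higher in untreated cells, with values between 0 and 0.042 in PBSL plus IL-1β libraries, 0.041 and 0.063 in IL-1β libraries and 0.257 and 0.393 in untreated libraries. The ranges of the first 2 groups overlapped. CSF1R, the macrophage colony-stimulating factor receptor, ran between 3.26 and 3.61 in PBSL plus IL-1β libraries, 3.72 and 3.81 in IL-1β libraries and 2.69 and 3.06 in untreated libraries. Among complement-related genes under the filter, CD93 had 0.879, 1.08 and 0.953 in PBSL plus IL-1β libraries, 0.745, 0.726 and 0.843 in IL-1β libraries and 0.405, 0.369 and 0.439 in untreated libraries. These genes were chosen after their values were seen, and no test of them is given.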
